A study of Arabidopsis thaliana with 9 samples.

Results

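The miR397, miR408 and miR857 families are the laccase and plantacyanin miRNAs of Arabidopsis thaliana. Their members were taken as all deposited entries of exactly these 3 family numbers. That gave 5 of 427 mature miRNA entries, namely ath-miR397a, ath-miR397b, ath-miR408-3p, ath-miR408-5p and ath-miR857, written below without the species prefix. Small RNA had been sequenced from leaves of 3-week-old plants of 3 genotypes, with 3 libraries each: wild type (WT), se-2 and chr2. SERRATE (SE), the gene affected in se-2, encodes a zinc finger protein that works with DICER-LIKE1 in cutting miRNA precursors. CHR2 is the SWI/SNF ATPase also called BRAHMA, and the series title places it as acting on primary miRNAs through SE to inhibit miRNA production. The labels give no treatment, name no allele for chr2 and do not say how strong either mutant is. They also do not say whether the libraries of a genotype came from separate plants, so the p-values below measure the spread between these libraries, which may be technical. Counts of miRNA entries alone could not be used to check the genotypes or the tissue, because no mRNA was counted.

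These miRNAs belong to the low-copper response of plants. When copper is scarce, the transcription factor SPL7 binds GTAC motifs and switches on MIR397, MIR398, MIR408 and MIR857 genes. The miRNAs then lower the transcripts of copper proteins, which is thought to leave copper for plastocyanin in the chloroplast. Laccases are secreted multicopper oxidases that polymerise lignin in the cell wall and, in the seed coat, flavonoids. Plantacyanin (ARPN) is a small extracellular blue copper protein.

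The mature sequences are shown first, because the reads of these entries can be told apart only by them. All 5 are 21 nt long. They are RefSeq sequences of the TAIR10.1 assembly, written 5′ to 3′ with the seed (bases 2 to 8) in capitals.
miR397a: uCAUUGAGugcagcguugaug
miR397b: uCAUUGAGugcaucguugaug
miR408-3p: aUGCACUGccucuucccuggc
miR408-5p: aCAGGGAAcaagcagagcaug
miR857: uUUUGUAUguugaagguguau
miR397a and miR397b had the same seed and differed by a single substitution, G13U, counted from 1 at the 5′ end with the base of miR397a named before that of miR397b. The other 3 members had seeds of their own within the set. None of the 5 shared its mature sequence with another entry.

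miR397a lies on chromosome 4 at chr4:2625960-2625980, plus strand, within MIR397a (AT4G05105). That gene sits opposite ENT6 (AT4G05110), in an intron of 1 of its 3 annotated mRNAs and outside the other 2. miR397b lies at chr4:7878730-7878750, minus strand, within MIR397b (AT4G13555), with no other gene over it. miR857 lies at chr4:7878198-7878218, also on the minus strand, within MIR857 (AT4G13554). Both miR408 arms come from the precursor of MIR408 (AT2G47015) on the plus strand of chromosome 2, miR408-5p at chr2:19319866-19319886 and miR408-3p at chr2:19319933-19319953. MIR408 lies opposite AT2G47020, within an untranslated exon of 1 of the 5 mRNAs of that gene.

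MIR397b and MIR857 are neighbours on the same strand. Their annotated precursors are separated by 90 bases, with MIR397b upstream and 0 genes between them, and 511 bases separate the mature miRNAs. The precursors of the pair differed in shape. The MIR397b precursor was 109 nt long, and its mature arm and the partner it pairs with in the predicted fold were separated by 47 bases. The MIR857 precursor was 377 nt long, with 309 bases between the arm and its partner. MIR397a, at 107 nt and 45 bases, and MIR408, at 218 nt with 45 to 47 bases, had fewer bases between arm and partner than MIR857.

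**Figure D1:**
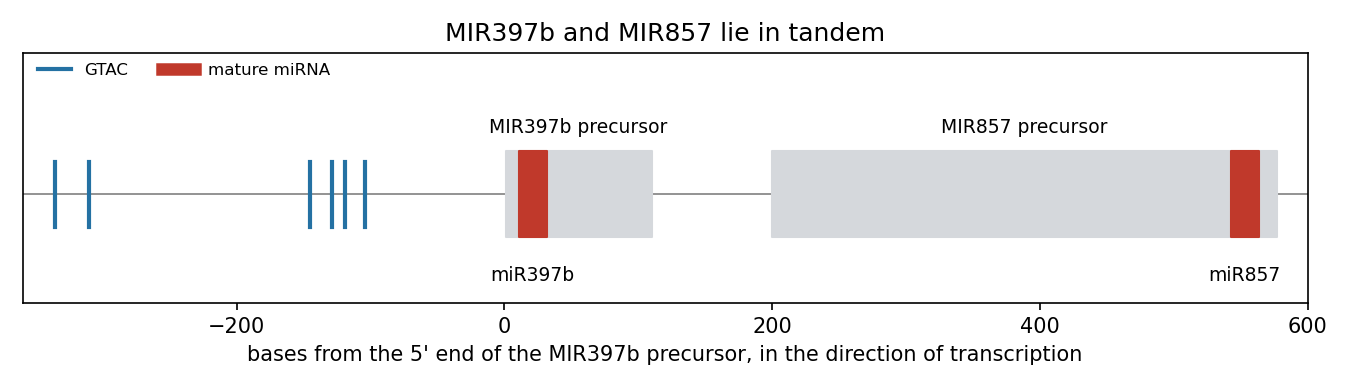
Map of the MIR397b and MIR857 genes along the minus strand of chromosome 4, in bases from the 5′ end of the MIR397b precursor; grey boxes are annotated precursors, red boxes the mature miRNAs and blue ticks the GTAC motifs. The 6 GTAC motifs stand before MIR397b, and the 377 nt MIR857 precursor begins 90 bases after the end of the 109 nt MIR397b precursor.

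The precursors of MIR397a and MIR397b are shown together because they are the closest relatives in the set, with the mature arm in capitals. The MIR397a precursor spans chr4:2625950-2626056, plus strand, and that of MIR397b chr4:7878652-7878760, minus strand (TAIR10.1).
MIR397a: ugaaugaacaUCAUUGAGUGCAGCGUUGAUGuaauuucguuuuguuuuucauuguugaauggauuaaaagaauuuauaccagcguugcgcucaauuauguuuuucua
MIR397b: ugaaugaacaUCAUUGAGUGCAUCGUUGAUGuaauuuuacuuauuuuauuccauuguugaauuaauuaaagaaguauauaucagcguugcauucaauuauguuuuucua
Both arms had 2 unpaired bases of 21 in the fold. The predicted minimum free energy (RNAfold) was -42.3 kcal/mol for MIR397a and -35.0 kcal/mol for MIR397b.

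The GTAC core was searched in the 500 bases before each annotated precursor start, and it reads the same on both strands. A precursor start is not a mapped transcription start. MIR408 had 10 GTAC, MIR397a 6, MIR397b 6 and MIR857 4. Across 33054 annotated genes, 57.5% had at least 1 GTAC in such a window, and the median was 1. The share of genes with at least as many was 0.00605% for the MIR408 number, 0.154% for the MIR397a and MIR397b number and 2.01% for the MIR857 number. All 4 GTAC in the MIR857 window were among the 6 counted for MIR397b, so the pair of genes shared them. The stretch that holds those 4 is shown, the 160 bases before the MIR397b precursor at chr4:7878761-7878920, minus strand, with each GTAC in capitals.
MIR397b upstream: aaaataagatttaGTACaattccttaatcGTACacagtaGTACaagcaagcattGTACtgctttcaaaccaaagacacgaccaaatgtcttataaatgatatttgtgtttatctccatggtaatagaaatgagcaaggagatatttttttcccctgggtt

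Pairing with the known targets was computed as background to the members' roles, since no transcript was counted. The known targets were read from RefSeq mRNAs. Each pairing was scored without gaps, by a penalty of 1 per mismatch and 0.5 per G:U pair, doubled at miRNA positions 2 to 13. Sites are written 5′ to 3′, with bases in Watson-Crick pairs in capitals. They are shown because the single base that separates miR397a from miR397b changes the pairing with the same laccase sites.
LAC2 with miR397a: aAUCAAuGCUGCACUCAAUGA
LAC2 with miR397b: aAUCAAuGcUGCACUCAAUGA
LAC4 with miR397a: agUCAACGCUGCACUuAAUGA
LAC17 with miR397a: aAUCAAuGCUGCACUuAAUGA
ARPN with miR408-3p: cCaAGGGAAGAGGCAGUGCAU
LAC12 with miR408-3p: GCCgGuGAAGAGGCuGUGCAa
LAC7 with miR857: AcACACCUUCAACgUACAAAA
The LAC2 site (chr2:12526364-12526384, minus strand, exon 5 of 6) had the lowest penalty of all 27440 coding genes for miR397a, 1.5. LAC4, listed by RefSeq as IRX12 and active in stem lignin, and LAC17, its partner in lignification, followed at 2.5 each, at chr2:15936120-15936140 and chr5:24169068-24169088 on the plus strand, both in exon 5. For miR397b the same sites scored 3.5 for LAC2, 3rd among all coding genes, and 4.5 for LAC4 and LAC17, tied at 7th. The lowest penalty for miR397b was 3.0, at AT1G19500. The ARPN site (chr2:827696-827716, minus strand, exon 1 of 2) scored 2.0 with miR408-3p. Only AT2G47020, which overlaps MIR408 on the opposite strand, scored lower, at 0.0. LAC12 (chr5:1594966-1594986, plus strand, exon 2 of 6) and LAC13 scored 4.5 and LAC3 scored 5.0 with miR408-3p. Thus 0 of 15 laccase genes had a penalty of 4 or less for miR408-3p in this ungapped search. Laccases were counted only where RefSeq lists them as LAC with a number or as IRX12. The LAC7 site had the lowest penalty for miR857, 2.0, and it spans a junction of exons 1 and 2 (chr3:2829996-2830003 and chr3:2830385-2830397, minus strand). The laccase and ARPN sites all lay in coding sequence.

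The deposited counts per library summed to between 1280294 and 1588242 in WT, 130482 and 195415 in se-2, and 637283 and 908635 in chr2. These sums hold miRNA entries only, so they are not the depth of the libraries. The WT mean was 8.58 times that of se-2 and 1.78 times that of chr2. Levels are therefore given as TMM-scaled CPM (library-size-scaled counts), a unit that sets each member against the other miRNAs of its library. This unit does not hold the median tested entry at 0, since its log2 fold change was -0.51 in chr2 against se-2. In bulk leaf RNA, fewer cells that make a miRNA and less miRNA per cell cannot be told apart. A floor of 3 counts corresponds to 15.4 to 23.0 unscaled CPM in the se-2 libraries and to 1.89 to 2.34 in WT. Floors and intervals cover counting error only.

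In WT leaves the members covered a wide range of levels. miR408-3p, the guide strand that targets plantacyanin, was the most abundant at 5873, 8125 and 9974 CPM in replicates 1 to 3, a rank between 28 and 36 among the 427 entries. miR408-5p, from the other arm of the same hairpin, stood at 504, 752 and 1222 CPM. miR397b stood at 152, 207 and 281 CPM. miR397a stood at 52.6, 69.3 and 154 CPM. miR857 was the lowest at 44.3, 52.2 and 67.4 CPM. By their means the order was miR408-3p, miR408-5p, miR397b, miR397a, miR857, but the library ranges of miR397b and miR397a overlapped, as did those of miR397a and miR857. WT replicate 3 had the highest CPM of the WT libraries for all 5 members, and it also had the largest summed count.

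**Figure D2:**
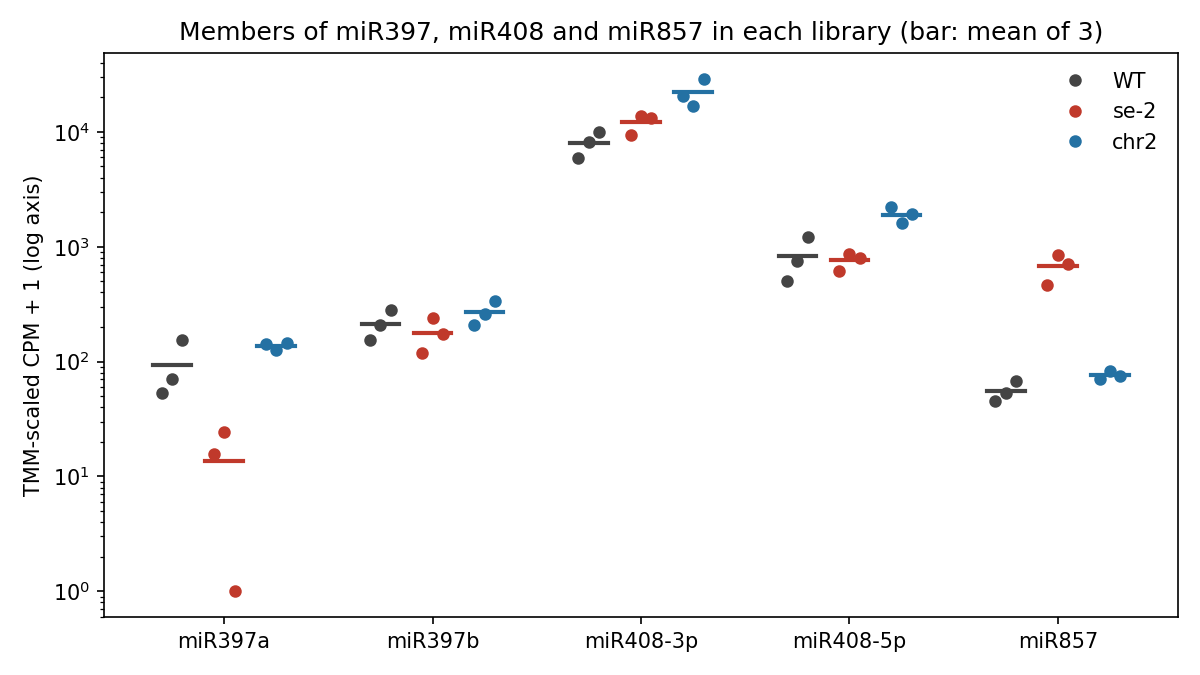
TMM-scaled CPM + 1 of the 5 members in each library, on a log axis, with points for libraries in WT (grey), se-2 (red) and chr2 (blue) and a bar at the mean of 3. miR857 in se-2 stands at 466 to 848 CPM against 44.3 to 67.4 in WT, miR397a in se-2 at 0 to 23.2 CPM, and miR408-3p in chr2 at 16810 to 29064 CPM.

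In se-2 against WT, the members did not move together. miR857, the regulator of LAC7, was 12.4-fold higher in se-2, while miR397a was 7.65-fold lower. miR397b, the neighbour of miR857, did not pass the test, nor did miR408-5p, though each was called lower under some other scalings. miR408-3p was called 1.51-fold higher, a call that depended on the scaling. The size of each of these differences also depended on the scaling. In all, 2 members were called higher and 1 lower, and 2 were not called, by edgeR's quasi-likelihood test at an adjusted p limit of 0.05 over 270 tested entries. All 5 members passed the filter on low counts. Of all tested entries, 42.2% were called higher and 30.4% lower in this comparison, so a call in either direction was common. The median log2 fold change was -0.11 over the members and 0.11 over all tested entries.

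miR857 had raw counts of 64, 146 and 139 in the se-2 libraries and of 59, 61 and 94 in the WT libraries, although the se-2 libraries held far fewer miRNA counts. In CPM it stood at 466, 848 and 710 in se-2. Every se-2 library lay above every WT library, and the lowest of them was several times the highest in WT. Mean miR857 was 675 ± 193 CPM (SD, n = 3) for se-2, beside 54.6 ± 11.7 CPM (SD, n = 3) for WT. The log2 fold change was 3.63 (SE 0.25, edgeR adjusted p = 3.72e-13), the 8th highest of 270. Its rank among the 427 entries was 64 to 76 in se-2 and 150 to 172 in WT. Under reference scaling, in which libraries are scaled to late-annotated entries with family numbers of 5000 and above, the log2 fold change was 1.24 (edgeR adjusted p = 0.00209). Without miR8175, which held 34.9 to 50.3% of those reference counts in se-2 and 22.7 to 25.9% in WT, it was 1.55 (edgeR adjusted p = 2.09e-05).

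miR397a had raw counts of 2, 4 and 0 in se-2 and of 70, 81 and 215 in WT. In CPM the se-2 libraries stood at 14.6, 23.2 and 0, all below the lowest WT library. The log2 fold change was -2.94 (SE 0.61, edgeR adjusted p = 9.27e-05), the 17th from the lowest of 270. Because the 3 se-2 libraries held 6 counts of it in all, against 366 in WT, the size of the difference is loosely fixed. Relative to scaled library size, the summed counts of WT exceeded those of se-2 by 7.91-fold, with a 95% interval of 3.60 to 21.7 by counting error alone. Leaving out se-2 replicate 2 gave -3.89 and leaving out se-2 replicate 3 gave -2.25, both still called. Under reference scaling the log2 fold change was -5.32 (edgeR adjusted p = 9.30e-07).

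miR397b, which differs from miR397a by G13U, stood at 117, 238 and 174 CPM in se-2. Replicate 1 lay below every WT library and the other 2 within the WT range, so the groups overlapped, and the log2 fold change was -0.26 (SE 0.28, edgeR adjusted p = 0.406). Its raw counts in se-2 were 16, 41 and 34. In se-2 replicate 3 the files thus hold 34 counts of miR397b and 0 of miR397a. Whether the authors' mapping let a read with a mismatch count for both entries is not given in the sources used here. Scaled by DESeq2 size factors it passed as lower, at -0.62 (edgeR adjusted p = 0.0375), as it did under reference scaling, at -2.66 (edgeR adjusted p = 4.05e-06).

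miR408-3p stood at 9343, 13789 and 13150 CPM in se-2. The lowest se-2 library lay below the highest WT library, so the groups overlapped. The log2 fold change was 0.60 (SE 0.22, edgeR adjusted p = 0.0177). The call was lost with DESeq2 size factors (0.24, edgeR adjusted p = 0.299), and the direction turned under reference scaling (-1.80, edgeR adjusted p = 1.38e-05). It was also lost without WT replicate 1 (0.38), without se-2 replicate 2 (0.50) and without se-2 replicate 3 (0.53). miR408-5p stood at 619, 872 and 792 CPM in se-2, inside the WT range, with a log2 fold change of -0.11 (SE 0.25, edgeR adjusted p = 0.690). Under reference scaling it was called lower, at -2.53 (edgeR adjusted p = 2.87e-06), and with total counts its sign turned to 0.046.

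Reference scaling shifted the median log2 fold change of all tested entries by -2.41 in this comparison. A change of scaling moves all members of a comparison by about the same amount, so it moves the set against 0 and leaves their order, as the plot of fold changes under 4 scalings shows.

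**Figure D3:**
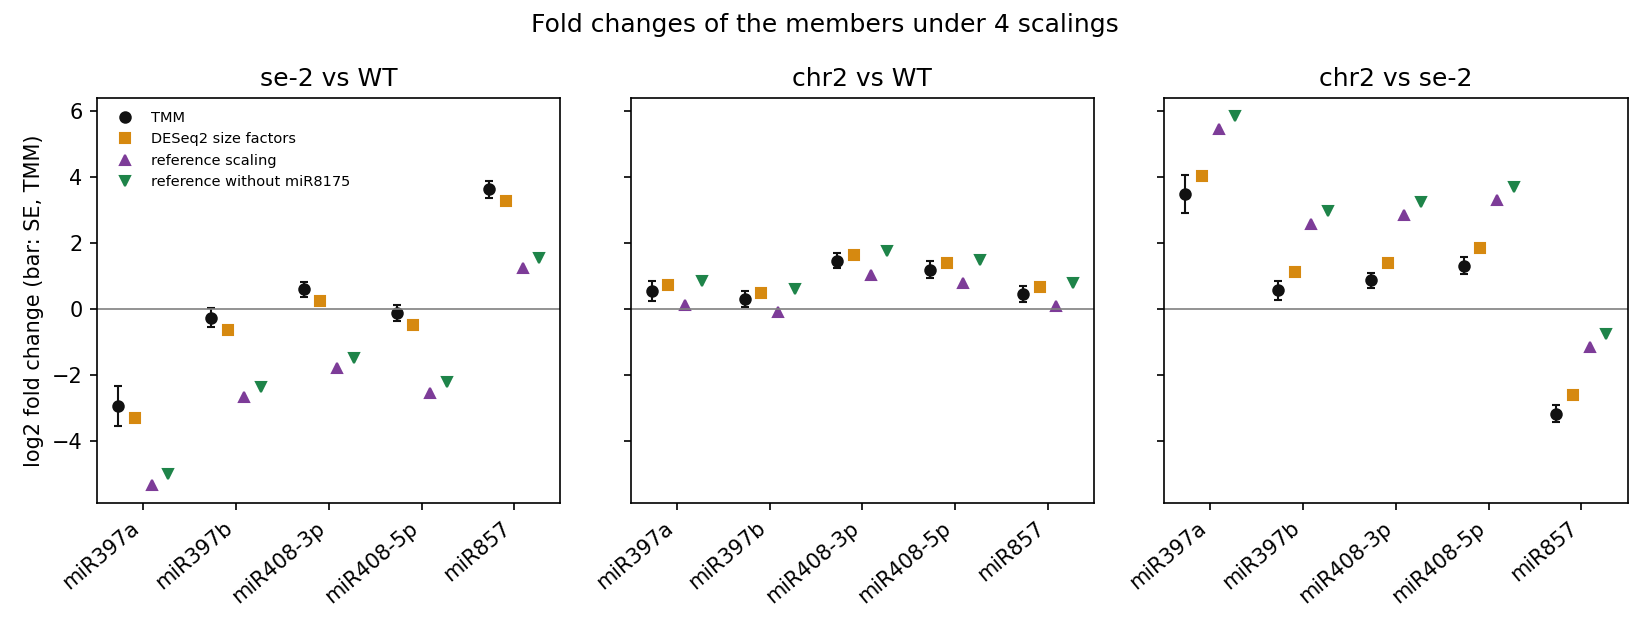
Log2 fold changes of the 5 members in the 3 comparisons, under TMM (black, bar is the SE), DESeq2 size factors (orange), reference scaling (purple) and reference scaling without miR8175 (green). In se-2 against WT, miR857 lies above 0 and miR397a below 0 under all 4 scalings, whereas miR408-3p runs from 0.60 under TMM to -1.80 under reference scaling.

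In chr2 against WT both arms of the miR408 hairpin were higher, miR408-3p by 2.77-fold and miR408-5p by 2.30-fold. The other members did not pass the test. Thus 2 of 5 members were called higher, 0 were called lower and 3 were not called, where 10.4% of all tested entries were called higher and 19.6% lower. The 2 called members are arms of the same hairpin (r = 0.87 over the libraries), so they are not separate loci. The median log2 fold change was 0.56 over the members and -0.15 over all tested entries. This comparison uses the same WT libraries as the previous comparison.

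miR408-3p stood at 20585, 16810 and 29064 CPM in chr2, and every chr2 library lay above every WT library. Mean miR408-3p was 22153 ± 6275 CPM (SD, n = 3) for chr2, beside 7991 ± 2054 CPM (SD, n = 3) for WT. The log2 fold change was 1.47 (SE 0.22, edgeR adjusted p = 8.98e-06), the 8th highest of 270. In raw counts, too, chr2 exceeded WT, with 15004, 17180 and 16197 against 7823, 9499 and 13918, although the summed counts were lower in chr2. Its rank among the 427 entries was 28 to 36 in WT and 13 or 14 in chr2. Under reference scaling the log2 fold change was 1.05 (edgeR adjusted p = 0.00645), and without miR8175 it was 1.75.

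miR408-5p stood at 2198, 1592 and 1909 CPM in chr2, again above all WT libraries. Mean miR408-5p was 1900 ± 303 CPM (SD, n = 3) for chr2, beside 826 ± 365 CPM (SD, n = 3) for WT. The log2 fold change was 1.20 (SE 0.24, edgeR adjusted p = 0.000321), the 12th highest of 270. Under reference scaling the call was lost, at 0.78 (edgeR adjusted p = 0.0525). Without miR8175, which held 51.7 to 55.8% of the reference counts in chr2, it was kept, at 1.49 (edgeR adjusted p = 0.000469).

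The laccase regulators of the other hairpins did not pass in chr2. miR397a stood at 140, 125 and 144 CPM, a narrow range that lay within the wide one of WT, and its log2 fold change was 0.56 (SE 0.30, edgeR adjusted p = 0.158). miR397b stood at 206, 257 and 337 CPM, overlapping WT, with a log2 fold change of 0.32 (SE 0.24, edgeR adjusted p = 0.341), which turned to -0.078 under reference scaling. Without miR8175 it was 0.62, again not called. miR857 stood at 70.0, 82.2 and 73.6 CPM, all above the highest WT library, with a log2 fold change of 0.46 (SE 0.25, edgeR adjusted p = 0.164). All 3 passed the limit when WT replicate 3 was left out, at 1.34 for miR397a, 0.74 for miR397b and 0.83 for miR857. Without se-2 replicate 2, miR397a (0.74) and miR857 (0.65) also passed. With DESeq2 size factors miR857 passed at 0.66 (edgeR adjusted p = 0.0425).

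Set directly against each other, the mutants differed in 4 of the 5 members in the fit used throughout, and the call of the remaining member, miR397b, depended on the settings. In chr2, miR397a, miR408-3p and miR408-5p were higher than in se-2, and miR857 was lower. Of all tested entries, 33.0% were called higher in chr2 and 47.4% lower. A call was thus the usual outcome, and 4 of 5 members is close to the share over all entries. The median log2 fold change was 0.87 over the members and -0.51 over all tested entries. miR397a was 11.2-fold higher in chr2, at a log2 fold change of 3.49 (SE 0.59, edgeR adjusted p = 5.60e-06). miR857 was 8.97-fold lower, at -3.16 (SE 0.25, edgeR adjusted p = 5.06e-12). miR408-5p was 2.49-fold higher, at 1.31 (SE 0.26, edgeR adjusted p = 4.36e-05), and miR408-3p 1.83-fold higher, at 0.87 (SE 0.22, edgeR adjusted p = 0.000912). In each of these 4 the libraries of the mutants did not overlap. The share of all tested entries without overlap was not computed, so this separation is not read as particular to the members. miR397b did overlap and was not called, at 0.57 (SE 0.28, edgeR adjusted p = 0.0643), but it was called higher in chr2 under 14 of 18 other settings, among them the replicate block at 0.60, DESeq2 size factors at 1.12 and reference scaling at 2.58. Reference scaling, which shifted the median of all entries by 1.99, gave 5.46 for miR397a, -1.15 for miR857, 2.85 for miR408-3p and 3.31 for miR408-5p, all still called. Without miR8175 the value of miR857 shrank to -0.74 (edgeR adjusted p = 0.0201). Those of miR397a, miR408-3p and miR408-5p were then 5.84, 3.24 and 3.71, all called. Without se-2 replicate 2 the value of miR397a was 4.63 and without se-2 replicate 3 it was 2.80, called in both cases.

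Within genotypes, the order of the members differed in se-2. There miR857 stood at the level of miR408-5p, with overlapping libraries (466 to 848 and 619 to 872 CPM), and both lay above miR397b and miR397a. In chr2 the order was that of WT, and there no neighbours in the order overlapped.

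Shares and ratios within a library are untouched by any scaling of libraries. With 3 libraries against 3 the smallest p an exact two-sided permutation test can give is 0.1, so none of the 12 tests could reach 0.05. The ratio of miR857 to miR408-3p, on the log2 scale with 1 count added to each, was -7.03, -7.26 and -7.19 in WT. In se-2 it was -4.30, -4.01 and -4.20, above every WT library. In chr2 it was -8.17, -7.66 and -8.59, below every WT library. The difference in mean was 2.99 for se-2 minus WT and -0.98 for chr2 minus WT (exact permutation p = 0.1 each, 0.133 after Benjamini-Hochberg adjustment). Relative to miR408-3p, miR857 thus stood higher in se-2 and lower in chr2 than in WT, in 3 of 3 libraries each.

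The ratio of miR397a to miR408-3p was lower than in WT in both mutants. It was -6.78, -6.86 and -6.01 in WT, -8.74, -8.89 and -11.3 in se-2, and -7.19, -7.06 and -7.64 in chr2. No library of either mutant overlapped with WT, and the differences were -3.10 for se-2 and -0.75 for chr2 (exact permutation p = 0.1 each, adjusted 0.133). The lowest se-2 value comes from the library with 0 counts of miR397a and is set by the added count. The other se-2 libraries held 2 and 4 counts, so their values also depend on it. With 0.5 count added instead, the se-2 difference was -3.57, and without se-2 replicate 3 it was -2.27. Without WT replicate 3 the chr2 difference was -0.48.

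The neighbours miR397b and miR857 were compared after their values had been seen, so their ratio carries no test. The log2 ratio of miR857 to miR397b was -1.76, -1.97 and -2.05 in WT and -1.54, -1.64 and -2.17 in chr2, which overlap. In se-2 it was 1.93, 1.81 and 2.0. In WT and chr2 leaves miR397b was thus the more abundant of the tandem pair in every library, and in se-2 leaves miR857 was, with a difference in mean of 3.84 between se-2 and WT.

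miR397b made up 74.3, 74.9 and 64.6% of the miR397a and miR397b counts in WT. It made up 88.9, 91.1 and 100% in se-2, where the smallest library had 16 counts of miR397b and 2 of miR397a and an exact 95% interval of 65.3 to 98.6%. It made up 59.5, 67.3 and 70.1% in chr2. The se-2 libraries lay above all WT libraries, with a difference of 22.1 percentage points (exact permutation p = 0.1, adjusted 0.133). The chr2 libraries overlapped with WT, at a difference of -5.61 points (exact permutation p = 0.3, adjusted 0.327). That difference was -2.55 without chr2 replicate 1 and -8.95 without WT replicate 3.

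miR408-5p made up 7.90, 8.47 and 10.9% of the counts of both miR408 arms in WT. It made up 6.22, 5.95 and 5.68% in se-2, where the 95% exact interval of replicate 1, the smallest library, ran from 5.0 to 7.63%. It made up 9.65, 8.65 and 6.16% in chr2. In se-2 the share lay below every WT library, with a difference in mean of -3.15 percentage points (5.95 ± 0.268% against 9.09 ± 1.60%, SD, n = 3 each, exact permutation p = 0.1, adjusted 0.133). In chr2 it overlapped with WT (exact permutation p = 0.6), at a difference of -0.94 points, which became 0.055 without chr2 replicate 3 and -0.031 without WT replicate 3.

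**Figure D4:**
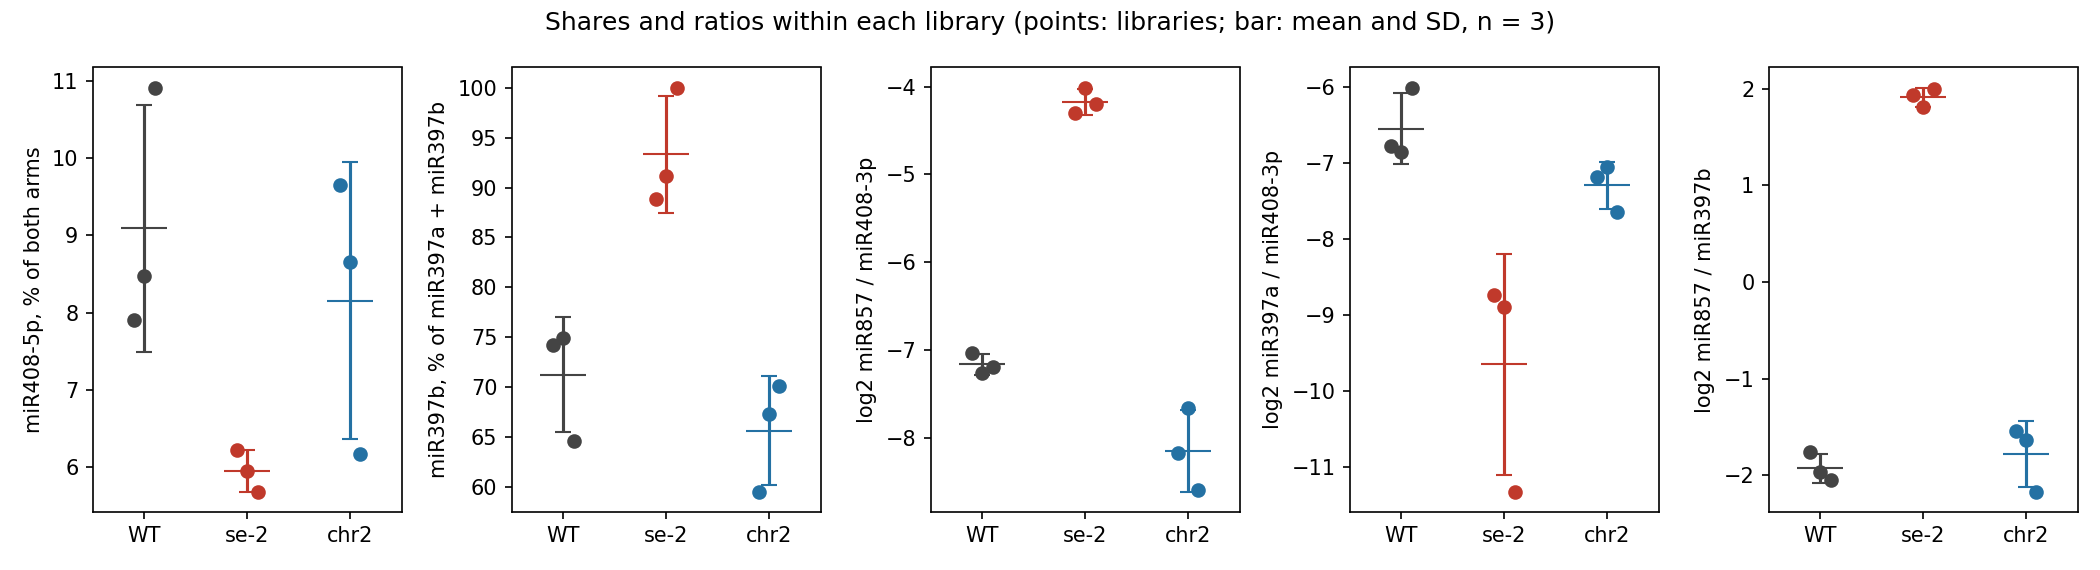
Shares (percent) and log2 ratios of the members within each library, by genotype, with points for libraries and bars for the mean and SD (n = 3). The log2 ratio of miR857 to miR397b lies between 1.81 and 2.0 in se-2 and below -1.5 in WT and chr2, while the share of miR408-5p overlaps between WT and chr2.

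The remaining low-copper entries are those of miR398, which targets copper/zinc superoxide dismutases. The list has 6 entries, of which the miR398b and miR398c arms share their mature sequences and are not separate measurements. In se-2 against WT all 6 were called lower, with a median log2 fold change of -1.39, beside 30.4% lower over all tested entries. miR398b-3p, for example, stood at 6552, 7350 and 9350 CPM in WT and at 2033, 4056 and 3301 CPM in se-2, with a log2 fold change of -1.31 (SE 0.22, edgeR adjusted p = 6.51e-06). All 6 were also called lower with DESeq2 size factors and both reference scalings, and 5 were with total counts. In chr2 against WT 0 of the 6 were called in either direction by edgeR, with a median of -0.38, while 2 had an unadjusted p below 0.05 and the DESeq2 test also called 0. With DESeq2 size factors 1 was called higher, and with reference scaling 4 were called lower. Reference scaling without miR8175 called 0 of them in either direction. The difference between these entries and miR408 was not tested. MIR398b and MIR398c had 7 and 8 GTAC in the window before their precursors and MIR398a had 0. The whole copper list of 11 entries counts the shared miR398b and miR398c sequences more than once. Of it, 2 were called higher and 7 lower in se-2 against WT, beside 42.2% and 30.4% of all tested entries. In chr2 against WT 2, the arms of miR408, were called higher and 0 lower, beside 10.4% and 19.6%. In chr2 against se-2 9 were called higher and 1 lower, beside 33.0% and 47.4%.

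The entries with the most similar profile to each member were ranked by Pearson's r of log2(CPM + 1) over the 9 libraries, among 200 tested entries of other families with distinct sequences. These are descriptions over libraries that share their genotype groups. The profile of miR857 was closest to those of miR5653, miR5659 and miR779-2 (r = 0.98 each). That of miR397a was closest to miR847 (0.95), miR169b-3p (0.94) and miR396b-3p (0.94). miR408-3p was closest to miR319c (0.95), and miR408-5p to miR391-5p (0.91). miR397b had no close match, the highest being miR858b (0.72). Among the members, the arms of miR408 had r = 0.87, miR397a and miR397b 0.54, and the tandem neighbours miR397b and miR857 -0.33.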

How the data were processed

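Small RNA of 19 to 24 nt from leaves was sequenced in 9 libraries, per the labels' protocols. What the authors deposited were whole-number counts for each mature miRNA, not normalized. Per the submitters' processing notes Bowtie 1.1.2 and the TAIR10 genome were used; how reads were counted, against which annotation, and how multiply mapping reads were handled is not given in the sources used here. Groups were taken from the sample titles.

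Of the 427 entries, 384 had a count, and identical count rows were kept once (368). With R 4.3.3 and limma 3.58.1, edgeR 4.0.16 (robust quasi-likelihood) was fitted to all 9 libraries with genotype as the only term, TMM scaling and filterByExpr, which left 270 entries. Benjamini-Hochberg adjustment ran over all 270, with a limit of 0.05. The fit was also run on simulated counts with equal numbers of entries raised and lowered, so that run did not test the choice of scaling. Alternatives were DESeq2 1.42.0 and its size factors, total counts, scaling to the summed counts of 101 entries with family numbers of 5000 and above, no filter, all rows, only the 6 libraries compared, a replicate block, and leaving out each library. Shares and log2 ratios were compared by exact permutation (SciPy 1.17.1), with 95% exact binomial intervals.

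Members, lists and named entries (miR397, miR408, miR857 and miR398, miR8175, and the 3 most similar entries per member) were chosen with earlier results of these data known. Coordinates and sequences come from RefSeq (TAIR10.1), where all 427 names matched; folds come from RNAfold 2.7.2. The penalty scheme and the sequence windows were set during the analysis. The target search first used the longest mRNA of each gene and was changed to the lowest penalty over all annotated mRNAs once its first result, which missed the LAC7 and LAC13 sites, had been seen. The ratio of miR857 to miR397b and the miR398 counts under other scalings and tests were also added after seeing the data. Between libraries of a genotype the counts differed by more than sampling noise, with a chi-square of at least 2.96 per degree of freedom.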

Additional observations from a re-analysis of the deposited data

How the results depend on the processing

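Of 507 values computed under alternative settings, 446 counted as unchanged. Fold changes of members counted so if they kept direction and side of the threshold. For counts of called entries the limit was a factor of 1.5. For shares and ratios it was 1 SD, whether or not the sign turned. In se-2 against WT, reference scaling gave 15 entries called higher and 192 lower, or 28 and 182 without miR8175, against 114 and 82. The members then stood at -2.66 and -2.35 (miR397b), -1.80 and -1.49 (miR408-3p) and -2.53 and -2.21 (miR408-5p). With DESeq2 size factors miR397b was called lower at -0.62 and miR408-3p lost its call at 0.24, and the DESeq2 test gave 0.24 for miR408-3p. miR408-5p was 0.046 with total counts and 0.0019 with no filter. In chr2 against WT, entries called higher numbered 46 with DESeq2 size factors, 12 with reference scaling and 48 without miR8175, against 28. Entries called lower numbered 107 and 25 with the reference scalings, 35 with total counts, 35 with all rows, 34 with only 6 libraries and 31 with the DESeq2 test, against 53. miR857 was 0.66 with DESeq2 size factors, 0.81 without miR8175 and 0.70 with only 6 libraries. miR397a was 0.71 with no filter, miR397b -0.078 and miR408-5p 0.78 with reference scaling. Without miR8175, miR397b was 0.62 and miR408-5p 1.49. In chr2 against se-2, entries called higher and lower numbered 160 and 31 with reference scaling and 175 and 21 without miR8175, against 89 and 128. miR397b was 1.12 with DESeq2 size factors and in the DESeq2 test, 2.58 and 2.97 with the reference scalings, 0.60 with no filter, and 0.69 with all rows and with only 6 libraries. Leaving out each library gave, in se-2 against WT, 0.38 to 0.75 for miR408-3p and -0.41 to 0.24 for miR408-5p. In chr2 against WT it gave 0.39 to 1.34 for miR397a, 0.30 to 0.74 for miR397b, 0.43 to 0.83 for miR857 and 29 to 53 entries called lower (30 without WT replicate 1, 33 without chr2 replicate 1, 29 without chr2 replicate 3). In chr2 against se-2 it gave 0.37 to 1.01 for miR397b. The causes of these changes were not tested. No pairing by replicate number was visible, since same-numbered libraries had correlations of -0.208 to 0.0776 and different-numbered ones -0.166 to 0.290. These values cannot show whether same-numbered libraries were prepared together. With the replicate block miR397b in chr2 against se-2 was called at 0.60, and no other member's call changed. Shares and ratios moved by less than 1 SD, but leaving out 1 library moved some differences by over 1.5 times. In chr2 against WT these were the miR408-5p share (-1.69 without chr2 replicate 1, 0.055 without chr2 replicate 3, -1.54 and -0.031 without WT replicates 1 and 3), the miR397b share (-2.55 and -8.95), the ratio of miR397a to miR408-3p (-0.48) and that of miR857 to miR397b (0.023 to 0.34). In chr2 against se-2 they were the miR408-5p share (1.46 without chr2 replicate 1) and the ratio of miR397a to miR408-3p (1.52 without se-2 replicate 3). Depth limits miR397a most, at 6 counts over the se-2 libraries.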
